A study of Mus musculus with 6 samples.

Results

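The collagen genes were taken as every gene whose symbol reads Col, a number, the letter a and a number, which picked 44 of the 31053 genes listed for each library. They were followed across the cell classes of mouse colon nuclei and across 3 groups of animals. All groups were C57BL/6J mice with the genotype given as WT: Control (2 libraries), Stress (3 libraries, 7 days of daily restraint) and Dexamethasone (1 library, 7 days of injections of this synthetic glucocorticoid). Nuclei from whole colon were sorted for the DNA stain DAPI and for INTACT, a tag on the nuclear envelope that marks chosen cells, and went into droplet single-nucleus RNA sequencing. The driver and allele of the tag, the dose, the age of the mice and whether a library came from 1 animal or a pool are not given in the sources used here, so each p-value below measures only the spread between libraries.

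Collagens are extracellular proteins whose chains wind around each other into trimers, some built from the products of several genes. Fibrillar collagens give connective tissue its tensile strength, collagen IV forms the network of basement membranes, fibril-associated and beaded filament collagens line or link fibrils, and transmembrane collagens stay on the cell surface. In the gut wall fibroblasts are the classical source of fibrillar collagen, while smooth muscle cells, vessels and the ganglia of enteric neurons and glia sit on basement membranes.

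The matrices held 11040 barcodes, of which 3436 were kept as nuclei, with 378 to 765 nuclei and a median of 1628.5 to 3970 UMIs (counted RNA molecules) per nucleus in each library. Clustering was run without the collagen genes, so no collagen placed or named a nucleus, although genes that vary with collagens did, and a test of a class or cluster against the others describes these nuclei. It gave 22 clusters, 5 of them left unnamed. The labels name the nuclei as those of the enteric nervous system (ENS). Yet glia-like (878) and neuron-like nuclei (444) made up 1322 of the 3436. This count leaves out unnamed cluster 2 (85 nuclei), whose levels of the neuron markers Elavl4 and Syt1 were near those of neuron-like nuclei. The sort also held epithelium-like (521), smooth muscle-like (319), fibroblast-like (204) and lymphatic endothelium-like (157) nuclei. Of the defining markers, Sox10 was highest in glia-like, Elavl4 in neuron-like, Pdgfra in fibroblast-like, Myh11 in smooth muscle-like, Prox1 in lymphatic endothelium-like and Epcam in epithelium-like nuclei, and the neuron marker Tubb3 had 0 UMIs in all of them. Barcode sequences shared by 2 or more libraries numbered 17, of which 3 were among the kept nuclei. Control 1 and Stress 1 had the fewest UMIs per nucleus, and results that change without both are marked below. The Dexamethasone matrix was written by Cell Ranger 5.0.1 and the others by 4.0.0, so program version and treatment cannot be told apart in that group.

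Levels are given as CPM, the UMIs of a gene per 1000000 UMIs of all genes, summed over the nuclei of a class in 1 library or pooled over all 6. At least 1 UMI was found for all 44 collagens, but 6 had under 10 UMIs, 9 had 10 to 99 and 29 had 100 or more. Collagens made up 0.866% of all UMIs in fibroblast-like nuclei (0.592 to 1.12% over the 6 libraries) and 0.534% in glia-like nuclei (0.478 to 0.635%). The share was 0.330% in smooth muscle-like, 0.246% in lymphatic endothelium-like and 0.117% in neuron-like nuclei. Epithelium-like nuclei held 0.0146% (0.00969 to 0.0315% over 5 libraries). This share leaves out unnamed cluster 13 (215 nuclei), which held the epithelial markers Muc2 (5014 CPM) and Epcam (417 CPM). Free RNA in the droplets was not measured and could be part of any of the shares given here. The 29 collagens with 100 UMIs or more were ranked over 6 classes, without vascular endothelium-like and unnamed nuclei. Fibroblast-like nuclei were highest for 13, glia-like for 8 and smooth muscle-like for 4. Lymphatic endothelium-like nuclei were highest for 2, neuron-like for 1 and epithelium-like for 1. Unranked vascular endothelium-like nuclei stood above the top class in Col4a1 (571 CPM pooled) and Col4a2 (454 CPM). So did unnamed cluster 13 in Col8a1 (1443 CPM) and unnamed cluster 2 in Col27a1 (521 CPM). The top class held in every library for 9 of the 13 fibroblast collagens, 7 of the 8 glial ones and the neuronal one, but for 0 of the 4 smooth muscle, 0 of the 2 lymphatic endothelium and 0 of 1 epithelium ones.

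**Figure D1:**
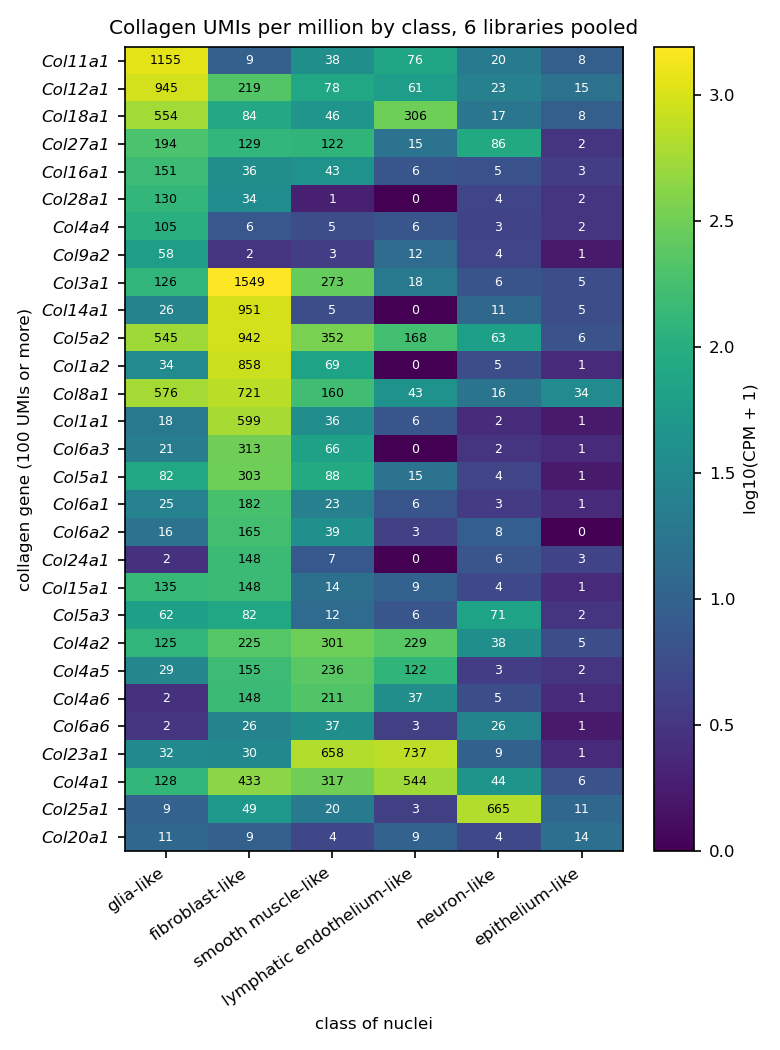
Heat map of the 29 collagens with 100 UMIs or more (rows) in 6 classes of nuclei (columns); each cell gives CPM over all 6 libraries and colour is log10(CPM + 1). Col11a1 stands at 1155 CPM in glia-like nuclei, Col3a1 at 1549 in fibroblast-like, Col23a1 at 658 and 737 in smooth muscle-like and lymphatic endothelium-like, and Col25a1 at 665 in neuron-like nuclei.

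Each class was tested against the unweighted mean of the other classes, with the library as a block, in edgeR's quasi-likelihood test over 6706 genes; a gene is called where its Benjamini-Hochberg adjusted p is under 0.05. In glia-like nuclei 20 of 27 tested collagens were called higher, against 30.1% of all genes, and 1 was called lower, against 18.5%. In fibroblast-like nuclei 20 of 27 were called higher, against 16.1%, and 1 lower, against 8.74%. In smooth muscle-like nuclei 14 were called higher, against 20.4%, and 1 lower, against 14.6%. Neuron-like nuclei had 3 higher, against 33.1%, and 17 lower, against 24.4%. Lymphatic endothelium-like nuclei had 5 higher, against 14.2%, and 9 lower, against 16.4%. Epithelium-like nuclei had 0 higher, against 30.3%, and 19 lower, against 32.7%. Without Stress 3 the lower calls were 11 in neuron-like, 0 in fibroblast-like and 0 in smooth muscle-like nuclei, and without Control 2 they were 2 in glia-like nuclei. The median log2 difference of the 27 was 2.95 in fibroblast-like and 1.495 in glia-like nuclei, where that of all genes was -0.06 and 0.03, and -3.18 in epithelium-like nuclei, where that of all genes was -0.22. By family, 7 of 9 tested fibrillar, 4 of 4 fibril-associated and 4 of 4 beaded filament collagens were called higher in glia-like nuclei, where fibroblast-like nuclei had 8 of 9, 2 of 4 and 4 of 4. Of the 5 tested chains of collagen IV, 4 were higher in fibroblast-like, 4 in smooth muscle-like, 3 in lymphatic endothelium-like and 2 in glia-like nuclei, and all 5 were lower in neuron-like nuclei.

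Of the 6 ranked classes, glia-like nuclei had the highest level of 8 collagens, some of which fibroblast-like nuclei held as well. Col11a1, a minor fibrillar chain that sets the width of fibrils, ranged from 812 to 1700 CPM over the libraries with a median of 1123, and the next class stood at 76.5 CPM pooled. Its log2 difference to the mean of the other classes was 5.97 ± 0.29 (SE), and it was the 1 collagen called lower in fibroblast-like nuclei, by a log2 difference of -2.88. Col12a1, a fibril-associated collagen that bridges fibrils, ranged from 802 to 1173 CPM (median 913), with a difference of 4.33 ± 0.19, while fibroblast-like nuclei held 219 CPM pooled. Col18a1, a basement membrane collagen that carries the endostatin fragment, ranged from 458 to 642 CPM (median 545), and lymphatic endothelium-like nuclei followed at 306 and fibroblast-like nuclei held 83.7.

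Several low-abundance collagens were also highest in glia-like nuclei. Col28a1, a collagen of the beaded filament class known from glia of peripheral nerves, ranged from 80.3 to 177 CPM (median 136). Its log2 difference was 5.55 ± 0.34. The next class, fibroblast-like nuclei, held 34.3 CPM pooled, 3.78-fold lower. Fibroblast-like libraries ranged from 0 to 129 CPM, which overlapped the glia-like range. Lymphatic endothelium-like nuclei had 0 UMIs of Col28a1, where 3 UMIs would be 9.17 CPM. Col4a4, a basement membrane chain best known from the kidney filter, ranged from 70.4 to 132 CPM (median 98.2), with 4.67 ± 0.28, and stood 16.3-fold above the next class. Col9a2, a fibril-associated chain best known from cartilage, stood at 58.1 CPM pooled, with 4.26 ± 0.35. All 3 were highest in glia-like nuclei in each of the 6 libraries. Col4a6, a smooth muscle basement membrane chain, was the 1 collagen called lower, by -3.35 ± 0.73. The fibrillar chains Col5a2 (545 CPM), Col27a1 (194 CPM) and Col3a1 (126 CPM), the network collagen Col8a1 (576 CPM), Col16a1 (151 CPM) and Col15a1 (135 CPM) were also called higher.

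The windows of 250 bases upstream of the RefSeq starts of Col28a1 and Col11a1 (GRCm38.p6) are shown because these were the glial collagens with the widest spread between glial clusters and the highest level. Col28a1 lies at chr6:8192618-8192867 on the minus strand and Col11a1 at chr3:114030290-114030539 on the plus strand. Capitals mark ACAAAG, a core motif bound by SOX factors such as the glial Sox10, searched on both strands.
Col28a1: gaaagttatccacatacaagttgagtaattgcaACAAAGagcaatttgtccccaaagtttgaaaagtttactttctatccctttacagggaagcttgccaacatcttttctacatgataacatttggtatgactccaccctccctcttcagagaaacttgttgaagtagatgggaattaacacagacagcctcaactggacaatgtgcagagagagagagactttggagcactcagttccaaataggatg
Col11a1: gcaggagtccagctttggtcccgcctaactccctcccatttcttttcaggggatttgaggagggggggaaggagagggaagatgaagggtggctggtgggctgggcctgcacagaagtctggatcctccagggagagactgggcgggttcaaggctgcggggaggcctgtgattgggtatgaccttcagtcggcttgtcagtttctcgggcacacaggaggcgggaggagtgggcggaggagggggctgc
The motif occurs 1 time in the Col28a1 window and 0 times in that of Col11a1. It was found in 4 of 38 collagen windows (35 symbols matched), namely of Col3a1, Col20a1, Col28a1 and Col10a1, which is 10.5% against 16.5% of all 32851 windows. The box CCAAT, also on both strands, was found in 34.2% of collagen windows and 33.8% of all.

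The 3 glia-like clusters differed in their collagens, in a test over 3109 genes of which 18 were collagens. Cluster 7, led by Kcna1 and Scn7a beside Col28a1, held 135 nuclei. Cluster 9, led by Ctgf, Sox10 and Frzb, held 379. Cluster 10, led by the immediate early receptors Nr4a3 and Nr4a2, held 364. In cluster 7 9 of 18 collagens were called higher than in the other glial clusters, against 7.08% of all genes, and 2 lower, against 9.07%.

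Col28a1 marked cluster 7 most firmly. Its levels there were 886 and 904 CPM (Control), 457, 581 and 624 (Stress) and 494 (Dexamethasone). Cluster 9 ranged from 42.5 to 141 CPM and cluster 10 from 24.6 to 75.3, so neither overlapped cluster 7, and the log2 difference was 3.31 ± 0.23. Col14a1, a fibril-associated collagen typical of fibroblasts, was at 301 and 278 CPM (Control), 41.6, 32.3 and 212 (Stress) and 175 (Dexamethasone) in cluster 7, with a difference of 4.43 ± 0.51. Its level was high in both Control libraries and in Stress 3 and low in Stress 1 and Stress 2.

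Col6a3, a long chain of the beaded filament collagen VI, was at 117 and 104 CPM (Control), 83.2, 177 and 66.4 (Stress) and 63.7 (Dexamethasone) in cluster 7, with a difference of 3.04 ± 0.50. Col5a3, a minor fibrillar chain found in nerve, was at 184 and 365, then 125, 194 and 133, then 127 CPM, with 1.95 ± 0.31. Col1a2, a chain of collagen I, was at 117 and 69.5, then 125, 80.7 and 39.8, then 95.5 CPM, with 1.66 ± 0.43. Every library held UMIs of all 3 in cluster 7. Col11a1 (-0.80 ± 0.14) and Col8a1 (-1.19 ± 0.24) were called lower there.

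Cluster 9 had 2 collagens called higher, against 4.08% of all genes, and 2 lower, against 5.69%. Col8a1, a short-chain network collagen best known from vessel walls and the cornea, was at 958 and 491 CPM (Control), 351, 1023 and 612 (Stress) and 918 (Dexamethasone), with a log2 difference of 0.74 ± 0.21. Col11a1 was at 1275 and 1831, then 1156, 981 and 1186, then 1269 CPM, with 0.45 ± 0.13. These ranges overlapped those of cluster 10. Col28a1 (-1.10 ± 0.26) and Col5a3 (-1.16 ± 0.32) were called lower. Both higher calls were lost without Stress 3 or without Dexamethasone, leaving 0, and 1 was left without Stress 1 or without Stress 2. The 2 lower calls became 1 without Control 1, Control 2 or Stress 3.

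Cluster 10 had 0 collagens called higher, against 9.84%, and 3 lower, against 4.02%. Without the Dexamethasone library, 1 was called higher. The 3 lower ones were Col6a3 (-1.94 ± 0.56), Col28a1 (-2.21 ± 0.27) and Col14a1 (-2.81 ± 0.69). The mean they were set against holds cluster 7, where these collagens are high; in cluster 10 and cluster 9 their pooled levels were 10.8 and 13.5 CPM for Col6a3, 53.4 and 87.5 for Col28a1 and 5.39 and 9.62 for Col14a1. In cluster 7 the higher calls fell from 9 to 5 without Control 1 and to 5 without Control 2.

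**Figure D2:**
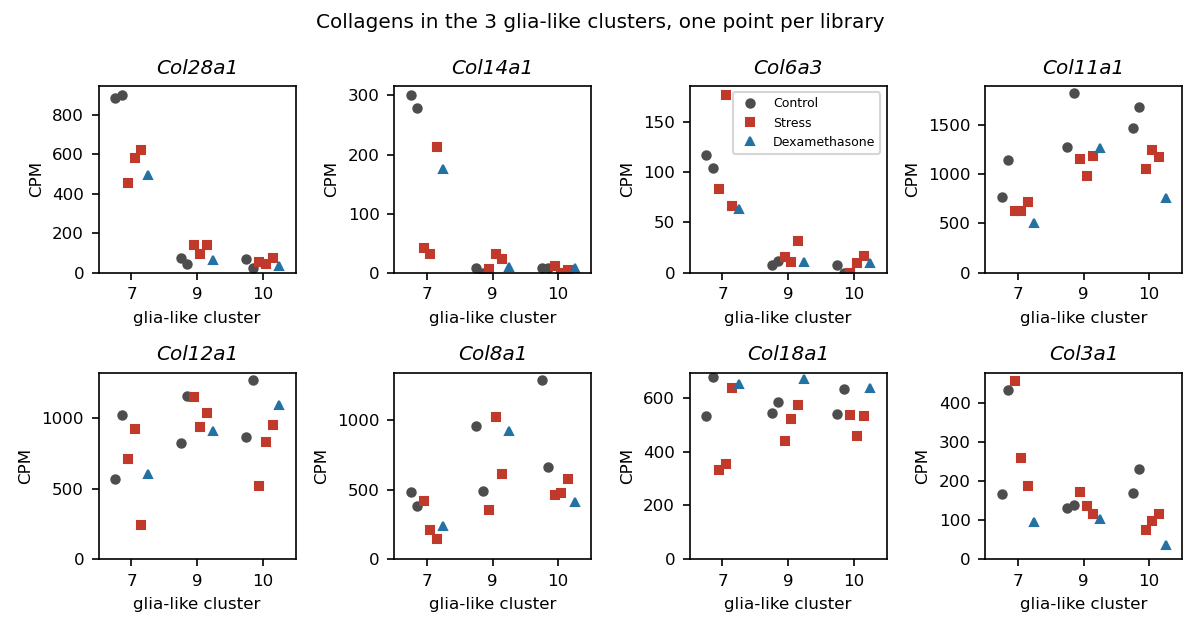
CPM (vertical axis) of 8 collagens in glia-like clusters 7, 9 and 10 (horizontal axis), with 1 point per library coloured by group. In cluster 7 Col28a1 sits between 457 and 904 CPM, above every point of clusters 9 and 10, while Col11a1 and Col8a1 are lower there.

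Fibroblast-like nuclei held the interstitial fibrillar collagens. Col3a1, the chain of collagen III, ranged from 880 to 3000 CPM (median 1524), with a log2 difference of 5.52 ± 0.20 to the mean of the other classes. Col1a2 ranged from 482 to 1546 CPM (median 867), with 6.77 ± 0.25, and Col1a1, its partner in collagen I, from 344 to 966 CPM (median 508), with 6.26 ± 0.26. Both chains of collagen I were highest in fibroblast-like nuclei in all 6 libraries. Col14a1 had the largest difference, 7.27 ± 0.30, with 630 to 1307 CPM (median 941) and 0 UMIs in lymphatic endothelium-like nuclei. Of the beaded filament collagen VI, Col6a3 stood at 313 CPM (5.71 ± 0.33), Col6a1 at 182 and Col6a2 at 165 CPM, all highest in this class in 6 of 6 libraries. Col24a1, a minor fibrillar chain known from bone and cornea, stood at 148 CPM, 22.7-fold above the next class.

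At a finer clustering (Leiden resolution 1.5) the 204 fibroblast-like nuclei split into 103 in cluster 13 and 101 in cluster 20, a comparison chosen after seeing the data. Of 16 collagens tested, 7 were higher in cluster 13, against 13.7% of all genes, and 3 were lower, against 10.8%. Basement membrane collagens were among the higher ones. Col15a1 had a log2 difference of 4.31, with 107 to 567 CPM (median 280) in cluster 13 and 0 to 48.0 (median 0) in cluster 20. Col4a1 had 1.68, with 292 to 1408 CPM against 132 to 432. Col24a1 (3.76), Col27a1 (3.56), Col4a6 (2.30), Col12a1 (2.13) and Col4a2 (1.27) were the others. Col14a1 went the other way, at -2.91, with 81.2 to 350 CPM in cluster 13 and 1057 to 2325 in cluster 20, so these libraries did not overlap. Col8a1 (-1.33) and Col6a3 (-1.21) were also lower in cluster 13.

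In smooth muscle-like nuclei the collagens of the largest difference were a transmembrane collagen and chains of collagen IV, while 6 of 9 tested fibrillar collagens were also called higher. Col23a1, a transmembrane collagen that was as abundant in lymphatic endothelium-like nuclei (737 against 658 CPM pooled), ranged from 200 to 1311 CPM (median 415), with a log2 difference of 4.40 ± 0.24. Col4a5 and Col4a6, chains that join in the basement membrane around smooth muscle cells, stood at 236 and 211 CPM pooled, with 3.44 ± 0.25 and 4.23 ± 0.31. Col6a3 (3.32 ± 0.42) and Col3a1 (2.81 ± 0.23) were also called higher, and both were several-fold higher again in fibroblast-like nuclei, at 313 and 1549 against 66.3 and 273 CPM.

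Of the Col23a1 UMIs in smooth muscle-like nuclei, 579 lay in cluster 18 (105 nuclei) and 126 in cluster 4 (214 nuclei), and these clusters were compared after seeing the data. In cluster 18, led by Hs3st4 and Col23a1 itself, the gene was at 1144 CPM (Control 1), 1535, 1024 and 2963 (Stress) and 698 (Dexamethasone), while Control 2, with only 2 nuclei, was left out. In cluster 4, led by Myh11 and Actg2, it was at 127 and 112, then 195, 137 and 239, then 160 CPM. The clusters did not overlap, with a log2 difference of 3.03 ± 0.27 (adjusted p = 4.15e-07 by edgeR's quasi-likelihood test). Col4a5 (1.49 ± 0.26) and Col4a6 (1.18 ± 0.28) were also higher in cluster 18, 3 of 15 collagens tested against 3.28% of all genes, and Col12a1 was lower by 3.74 on the log2 scale, 1 of 15 against 3.65%. Markers of interstitial cells of Cajal, the pacemaker cells of gut muscle, were higher there as well, with Ano1 at 1373 CPM against 168 and Kit at 249 against 34.2, while the muscle gene Myh11 was at 4318 against 6589 CPM. The part of other cells in the Col23a1 difference was not tested.

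Lymphatic endothelium-like nuclei had the same transmembrane collagen at a steadier level, Col23a1 at 624 to 785 CPM (median 728; log2 difference 4.49 ± 0.27). They also had Col4a1 at 73.4 to 795 CPM (median 551; 2.06 ± 0.24), Col18a1 at 149 to 384 (median 229; 1.94 ± 0.31), Col4a5 (122 CPM pooled; 1.88 ± 0.38) and Col4a2 (229 CPM pooled; 1.32 ± 0.27). Col3a1, Col1a2 and Col25a1 were among the 9 called lower. Vascular endothelium-like nuclei, 37 in all with fewer than 10 in every library, were not tested.

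In neuron-like nuclei 1 collagen dominated. Col25a1, a transmembrane collagen found in amyloid plaques and needed on muscle for motor innervation, ranged from 529 to 862 CPM (median 730) and stood 13.5-fold above the next class, with a log2 difference of 6.00 ± 0.26. Col5a3 (2.36 ± 0.28) and Col27a1 were the other 2 called higher.

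Among neuron-like clusters, again compared after seeing the data, Col25a1 was highest in cluster 5, led by Vip, the transmitter of inhibitory motor neurons. Its level was 1272 CPM pooled there, 632 in cluster 8 (Nos1), 387 in cluster 16 (Sst) and 80.1 in cluster 12 (Nmu). Unnamed cluster 2, led by Penk and Tac1 and with the neuron marker Elavl4 at 970 CPM, was left out of this comparison. It held Col25a1 at 1036 CPM pooled, so a high level was not particular to cluster 5. Cluster 5 was higher than the mean of the others by 2.54 ± 0.40 (adjusted p = 0.000113 by edgeR's quasi-likelihood test) and cluster 12 lower by 3.28 on the log2 scale. In cluster 12 only Stress 2, Stress 3 and Dexamethasone had 10 or more nuclei, with Col25a1 at 8.09, 127 and 210 CPM, and no Control library did. Col5a2, a fibrillar collagen V chain, was higher in cluster 8 by 2.76 ± 0.31, and Col5a3 in cluster 16 by 1.61 ± 0.26. In cluster 5 the calls were 1 of 11 collagens higher against 6.96% of all genes and 1 lower against 1.81%. Cluster 8 had 1 higher against 9.46% and 1 lower against 7.19%, and cluster 16 had 1 higher against 7.99% and 1 lower against 3.42%. In cluster 12 they were 2 of 11 higher against 10.6% and 2 of 11 lower against 10.8%.

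**Figure D3:**
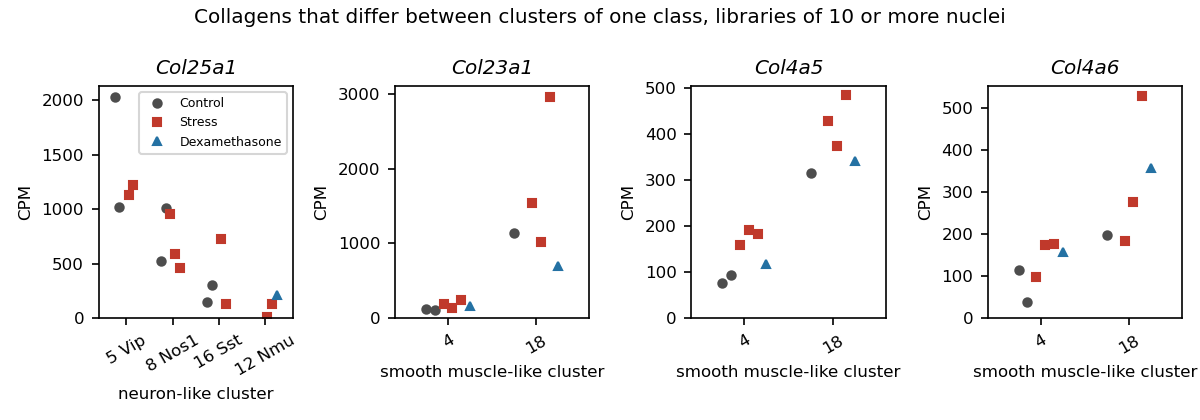
CPM (vertical axis) of Col25a1 in 4 neuron-like clusters and of Col23a1, Col4a5 and Col4a6 in smooth muscle-like clusters 4 and 18 (horizontal axis), with 1 point per library of 10 or more nuclei in that cluster. Col23a1 is at 112 to 239 CPM in cluster 4 and 698 to 2963 in cluster 18.

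Collagen IV genes lie head to head in pairs, and the pairs differed in how evenly they were read. The gene models of Col4a1 and Col4a2 start 21 bases apart on opposite strands of chromosome 8 and overlap in 22 bases at chr8:11312805-11312826 (GRCm38.p6, plus strand; RefSeq). This stretch is shown in capitals because both models include it, and reads there can be told apart only by strand.
Col4a1 and Col4a2: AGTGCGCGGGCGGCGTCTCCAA
Of the UMIs of both genes, Col4a1 took 50.6% in glia-like nuclei, 51.4% in smooth muscle-like, 53.9% in neuron-like, 65.8% in fibroblast-like and 70.4% in lymphatic endothelium-like nuclei, all libraries pooled. Within libraries its share in fibroblast-like nuclei exceeded that in glia-like nuclei by 13.8 percentage points ± 10.9 (SD, n = 6), higher in 6 of 6, with an exact permutation p = 0.0312, two-sided, and 0.125 after Benjamini-Hochberg adjustment over the 4 classes set against glia-like. With 6 libraries this test can give no p below 0.0312, so the adjusted value cannot decide whether the shares differ. Col4a4 and Col4a3 start 72 bases apart, yet glia-like nuclei held 339 UMIs of Col4a4 and 4 of Col4a3, which is 33.5 against 0.468 UMIs per kb of transcript. Col4a6 and Col4a5 start 1309 bases apart and were near each other in smooth muscle-like nuclei (34.0 and 38.7 UMIs per kb) but not in glia-like nuclei (0.903 and 14.5). Over 35 sums of a class in a library, Spearman's rho was 0.85 for Col4a1 with Col4a2, 0.62 for Col4a6 with Col4a5 and 0.30 for Col4a4 with Col4a3, as a description of sums that share libraries and depth. Of the 12 pairs computed, the highest values were those of Col6a2 with Col6a1 (rho 0.91), Col1a2 with Col3a1 (0.87) and Col4a1 with Col4a2, followed by Col1a1 with Col1a2 and Col3a1 with Col5a2 (both 0.84).

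Stress against Control asked whether restraint moved any collagen. By edgeR's quasi-likelihood test no collagen was called in glia-like nuclei (0 of 25 tested, against 2.03% of all genes), fibroblast-like (0 of 16, 1.16%), smooth muscle-like (0 of 13, 0.0699%), neuron-like (0 of 9, where 0% of all genes were called) or lymphatic endothelium-like nuclei (0 of 2, 0%). In epithelium-like nuclei, where 0.118% of all genes were called, no collagen had enough UMIs to be tested. The same held in glia-like clusters 10 (0 of 13, 2.37%), 7 (0 of 13, 0.232%) and 9 (0 of 16, 1.19%). At an unadjusted p under 0.05 there were 6 of 25 in glia-like nuclei, 5 of them lower, where 13.2% of all genes passed, and 5 of 16 in fibroblast-like nuclei, all lower, where 11.7% passed. Smooth muscle-like nuclei had 4 of 13, where 315 of 2860 genes passed, and neuron-like nuclei 3 of 9, where 10.2% passed.

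In fibroblast-like nuclei the point estimates of 13 of 16 tested collagens lay below 0, with a median log2 fold change of -0.41 where that of all genes was -0.01. Col4a1, the basement membrane chain, was at 860 and 405 CPM (Control), 268, 229 and 213 (Stress) and 784 (Dexamethasone). All 3 Stress libraries lay below both Control libraries, with a log2 fold change of -1.49 ± 0.37 and an adjusted p of 0.0634 (edgeR). Col3a1 was at 1853 and 3000 CPM (Control), 1284, 1352 and 880 (Stress) and 1696 (Dexamethasone), again with no overlap of Stress and Control, at -1.16 ± 0.30 (adjusted p = 0.0844). Col5a2 was at 1700 and 939, then 804, 607 and 537, then 1406 CPM, also without overlap, at -1.10 ± 0.32 (adjusted p = 0.120 by edgeR). These 3 collagens were named for their smallest p, a choice that favours libraries that separate by group.

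These calls sat near the threshold and turned on single libraries. DESeq2 called 1 collagen, Col3a1. Without Control 1, 1 was called, again Col3a1, and without Control 2, 1 was called, Col4a1. Without both Control 1 and Stress 1, 3 were called (Col3a1, Col24a1 and Col1a2), an alternative added after seeing the data. The summed fibroblast markers (11 of 11 with UMIs) were at 7201 and 10327 CPM (Control), 9621, 9634 and 9170 (Stress) and 10306 (Dexamethasone), so their levels overlapped between groups. Glial markers (9 of 12 with UMIs) in the same nuclei were at 669 and 73.6, then 353, 699 and 973, then 354 CPM, and their part in the difference was not tested.

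In glia-like nuclei under Stress the 3 collagens of smallest p were Col15a1, Col14a1 and Col4a2. Col15a1, a basement membrane collagen related to Col18a1, was at 164 and 178 CPM (Control), 113, 113 and 116 (Stress) and 137 (Dexamethasone), at -0.63 ± 0.20 (adjusted p = 0.162 by edgeR). Col14a1 was at 44.8 and 38.8, then 9.67, 10.5 and 25.3, then 23.8 CPM, at -1.32 ± 0.46 (adjusted p = 0.208). Col4a2 was at 158 and 171, then 99.9, 134 and 96.8, then 113 CPM, at -0.63 ± 0.22 (adjusted p = 0.212). In all 3 the Stress libraries lay below the Control libraries without overlap, and none passed. Their choice by smallest p favours libraries that separate by group, so this separation is no further support. Fibroblast markers (11 of 11 with UMIs) in these nuclei were at 294 and 427 CPM (Control) and 770, 550 and 474 (Stress), with every Stress library above Control, and their part was not tested. The nuclei also lay in different clusters by library, since cluster 10 held 38 of 203 and 30 of 138 (Control) and 25 of 124, 67 of 118 and 122 of 183 (Stress). Col11a1, the leading glial collagen, was at 1269 and 1700 CPM (Control) and 1083, 1111 and 1135 (Stress), at -0.46 ± 0.19 (adjusted p = 0.285). Single collagens were called in 3 alternatives, Col8a1 without Control 2, Col3a1 with no filter on mitochondrially encoded UMIs, and Col11a1 without Control 1 and Stress 1.

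In smooth muscle-like nuclei under Stress the smallest p belonged to Col23a1, Col4a1 and Col1a2. This choice favours libraries that separate by group. Col23a1 was at 375 and 200 CPM (Control), 764, 455 and 1311 (Stress) and 289 (Dexamethasone), at 1.41 ± 0.45 (adjusted p = 0.254 by edgeR). All 3 Stress libraries lay above Control. Cluster 18, which is rich in this gene, gave 12 and 2 nuclei (Control), 27, 15 and 34 (Stress) and 15 (Dexamethasone), and in cluster 4 alone the fold change was 0.56 (adjusted p = 0.721), where 0.339% of all genes and 0 of 10 collagens were called. Without Control 1 and Stress 1, 1 collagen was called, Col23a1. Col4a1 was at 346 and 566, then 217, 198 and 318, then 372 CPM, at -0.94 ± 0.33 (adjusted p = 0.294). Col1a2 was at 106 and 150, then 70.1, 46.7 and 51.9, then 69.1 CPM, at -1.26 ± 0.48 (adjusted p = 0.327), again with every Stress library below Control.

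In neuron-like nuclei under Stress the smallest p belonged to Col6a6, a collagen VI chain. It was at 1.75 and 5.96 CPM (Control), 39.8, 16.7 and 56.9 (Stress) and 8.17 (Dexamethasone), at 3.37 ± 0.83 (adjusted p = 0.197 by edgeR), from 3 UMIs in Control and 95 in Stress. With no filter on low counts it was called. Elsewhere its counts were low and had no test. Smooth muscle-like nuclei held 0 UMIs in both Control libraries, 6, 7 and 25 in Stress and 2 in Dexamethasone, and fibroblast-like nuclei 0 and 0, then 1, 2 and 9, then 0 UMIs.

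**Figure D4:**
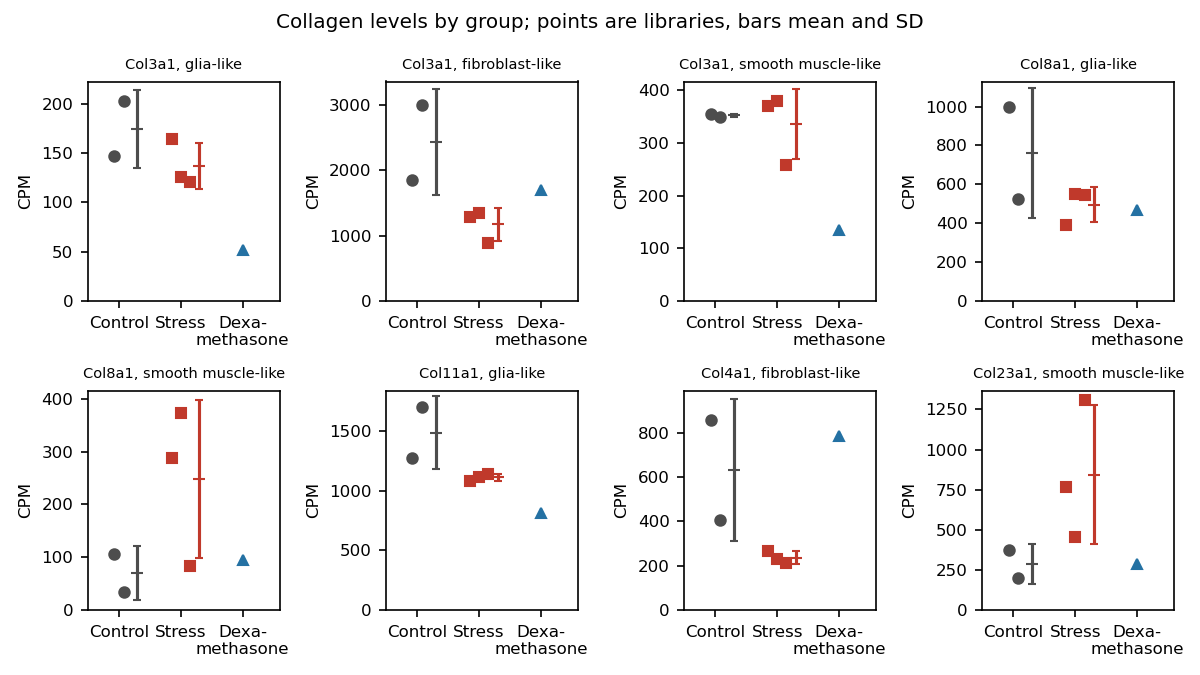
CPM (vertical axis) of named collagens in 1 class per panel by group (horizontal axis), with 1 point per library and bars for the mean ± SD of Control (n = 2) and Stress (n = 3). Col3a1 in glia-like nuclei is lowest in Dexamethasone, at 52.1 CPM against 121 to 203 in the other libraries, and Col4a1 in fibroblast-like nuclei is at 213 to 268 CPM in Stress.

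Dexamethasone against Control rests on 1 treated library, whose spread was assumed to be that of the other groups, and it uses the same 2 Control libraries as the Stress comparison. In glia-like nuclei 1 of 25 collagens was called, against 5.96% of all genes, and it was lower, as were 0.612% of all genes. This was Col3a1, at 147 and 203 CPM (Control), 164, 126 and 121 (Stress) and 52.1 (Dexamethasone), the last from 35 UMIs. The Dexamethasone library was the lowest of the 6, with a log2 fold change of -1.65 ± 0.35 (adjusted p = 0.00663 by edgeR's quasi-likelihood test). The call was made in every alternative run for glia-like nuclei, with adjusted p from 0.000675 to 0.0427. With 1 call among 25, near the share of all genes in either direction, this is no result about the collagens as a set. The window upstream of the Col3a1 start is shown because Col3a1 is the 1 collagen called here. It lies at chr1:45311288-45311537 on the plus strand (RefSeq, GRCm38.p6). Capitals mark the SOX core ACAAAG on either strand.
Col3a1: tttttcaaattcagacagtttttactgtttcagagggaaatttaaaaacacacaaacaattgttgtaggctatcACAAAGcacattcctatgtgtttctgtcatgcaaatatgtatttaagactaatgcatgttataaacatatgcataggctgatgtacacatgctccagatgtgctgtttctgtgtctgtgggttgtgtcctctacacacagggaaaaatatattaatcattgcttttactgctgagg
Fibroblast markers in glia-like nuclei were at 552 CPM in Dexamethasone, within the 294 to 770 of the other libraries, while smooth muscle markers (10 of 10 with UMIs) were at 695 against 143 to 327, lymphatic endothelium markers (7 of 7) at 220 against 59.3 to 149 and macrophage markers (8 of 9) at 77.3 against 10.7 to 36.9, and the part of these lists in the difference was not tested.

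The glial clusters were unevenly filled, since cluster 10 held 82 of the 112 Dexamethasone glia-like nuclei, above the share in every other library. Within cluster 10 Col3a1 was again called, 1 of 20 collagens against 5.8% of all genes in either direction and 0.675% lower, at 170 and 230 CPM (Control), 73.6, 96.9 and 115 (Stress) and 37.1 (Dexamethasone), with a log2 fold change of -2.30 ± 0.47 (adjusted p = 0.00206 by edgeR). Stress and Dexamethasone libraries all lay below Control there. Col8a1 was at 1285 and 665, then 463, 475 and 574, then 408 CPM in cluster 10, at -1.14 ± 0.35 and an adjusted p of 0.0506. It was called as well, making 2, without Control 2, Stress 1, Stress 2 or Stress 3, each left out in turn. In cluster 7 Col3a1 had -1.77 (adjusted p = 0.253; 0 of 16 collagens called, against 1.62%), and in cluster 9 it was at 103 CPM in Dexamethasone against 131 and 139 in Control (0 of 17 called, against 1.43%).

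The other glial collagens of small p in Dexamethasone were Col28a1, with 80.3 CPM against 177 and 151 in Control (-0.93 ± 0.31, adjusted p = 0.0887 by edgeR), and Col11a1, with 812 CPM against 1269 and 1700 (-0.77 ± 0.27, adjusted p = 0.113). Both Dexamethasone values were the lowest of the 6 libraries. Col11a1 was also called without Control 1, making 2 collagens. The median log2 fold change of the 25 was -0.39, where that of all genes was -0.06.

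In fibroblast-like nuclei 0 of 21 collagens were called in Dexamethasone, against 2.36% of all genes, and 3 had an unadjusted p under 0.05, where 11.9% of all genes did, a share near that of the collagens. Col6a1, a collagen VI chain, was at 95.5 and 129 CPM (Control), 127, 160 and 176 (Stress) and 333 (Dexamethasone) (1.55 ± 0.57, adjusted p = 0.205 by edgeR). Col25a1 had 0 UMIs in both Control libraries and 15 in Dexamethasone (161 CPM). Col4a5 was at 172 and 92.0, then 127, 80.2 and 111, then 322 CPM (1.29 ± 0.59, adjusted p = 0.370). All 3 were highest in Dexamethasone. Skeletal muscle markers (2 of 5 with UMIs) were at 150 CPM in this library against 0 to 22.9 elsewhere, and their part was not tested. Col3a1, which was lower in glia-like nuclei, was at 1696 CPM here, inside the range of the other libraries.

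In smooth muscle-like nuclei 0 of 19 were called in Dexamethasone, against 0.532%, and 4 had an unadjusted p under 0.05, where 10.6% of all genes did; 2 of the 4 were lower and 2 higher. Col3a1 was at 355 and 350 CPM (Control), 371, 379 and 259 (Stress) and 135 (Dexamethasone) (-1.46 ± 0.42, adjusted p = 0.160 by edgeR), the lowest of the 6, and it was called without Stress 2. Col5a2 was at 327 and 583, then 350, 391 and 418, then 230 CPM (-1.01 ± 0.41, adjusted p = 0.365). Col18a1, at 28.8 and 16.7, then 0, 17.5 and 6.92, then 132 CPM, had 2.34 ± 1.00 (adjusted p = 0.410). Markers of other cell types also stood apart in this library: glial markers (10 of 12 with UMIs) were at 796 CPM against 45.0 to 203 elsewhere, skeletal muscle markers (4 of 5) at 763 against 5.83 to 28.0, neuron markers (12 of 14) at 720 against 150 to 268 and enteroendocrine markers (4 of 6) at 230 against 0 to 14.0. Fibroblast markers (10 of 11) were lowest there, at 503 against 574 to 961 CPM, and the part of none of these lists in the Col3a1, Col5a2 and Col18a1 values was tested. Neuron-like nuclei had 0 of 11 called, against 0.543%, and lymphatic endothelium-like nuclei 0 of 6, against 0.278%. Only 8 Dexamethasone nuclei were epithelium-like, too few to test.

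**Figure D5:**
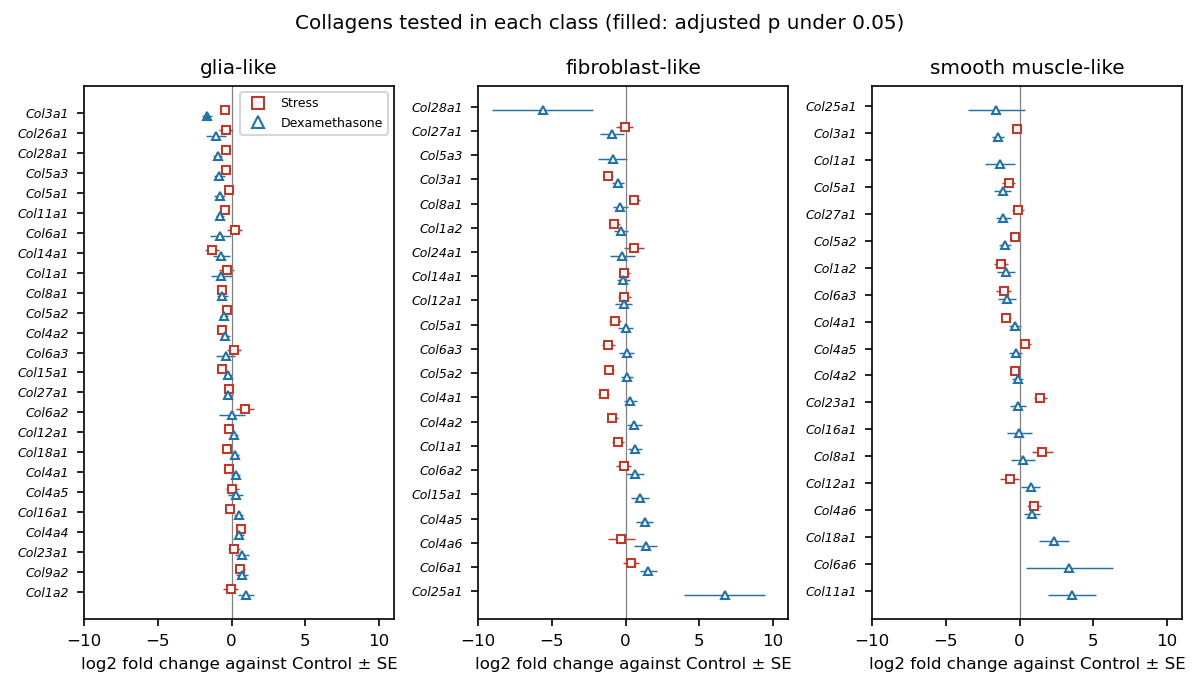
Log2 fold change ± SE against Control (horizontal axis) of each tested collagen (vertical axis) in glia-like, fibroblast-like and smooth muscle-like nuclei, for Stress (squares) and Dexamethasone (triangles); filled symbols passed an adjusted p of 0.05. Col3a1 in glia-like nuclei under Dexamethasone, at -1.65, is the 1 filled symbol.

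Genes that make, process, bind or degrade collagen were read from the same tests as 5 lists of 63 genes. Under Stress none of them was called in any class or glial cluster. Tested were 31 in glia-like nuclei (where 2.03% of all genes were called), 13 in fibroblast-like (1.16%) and 14 in smooth muscle-like (0.0699%). At such shares 0 calls is no result about the lists. The smallest p belonged in glia-like nuclei to Plod2, a lysyl hydroxylase that prepares crosslinks (-0.90 ± 0.26), Timp2, an inhibitor of matrix proteases (0.86 ± 0.26), Adamts2, which trims the amino end of fibrillar procollagen (-1.25 ± 0.41), and the prolyl hydroxylase P3h2 (-0.52 ± 0.19), with adjusted p from 0.106 to 0.229. In fibroblast-like nuclei they were Pcolce2 (1.54 ± 0.51), Mmp16 (1.13 ± 0.46), Timp3 (-0.50 ± 0.40) and Plod2 (0.34 ± 0.36), and in smooth muscle-like nuclei Plod2 (-1.35 ± 0.40), Tll1 (-2.43 ± 0.78), the crosslinking enzyme Loxl2 (-1.35 ± 0.45) and the collagen-binding integrin chain Itga1 (-0.61 ± 0.24).

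Under Dexamethasone 2 of the 35 tested in glia-like nuclei were called, against 5.96% of all genes in either direction, so the count lies near the background and is no result about the lists. Both fell, as did 0.612% of all genes. Adamts2 was at 32.0 and 52.5 CPM (Control), 19.3, 16.7 and 18.4 (Stress) and 2.97 (Dexamethasone), which is 2 UMIs, with a log2 fold change of -3.63 ± 0.80 (adjusted p = 0.00837 by edgeR). Itga2, the collagen-binding chain of an integrin receptor, was at 384 and 388, then 422, 322 and 342, then 177 CPM, with -1.03 ± 0.29 (adjusted p = 0.0458). In both the Dexamethasone library was the lowest of the 6. By the same test Itga2 fell in cluster 10 (adjusted p = 0.0112) and in cluster 7 (-2.59 ± 0.71, adjusted p = 0.0301), while in cluster 9 Timp2 rose (1.75 ± 0.43, adjusted p = 0.0212). The next smallest p in glia-like nuclei were those of Plod2 (-1.01 ± 0.36) and Timp2 (0.83 ± 0.33). In fibroblast-like nuclei 0 of 25 were called, against 2.36% of all genes. Plod2 (1.37 ± 0.47), Loxl2 (1.30 ± 0.44), the collagen IV receptor Adgrg6 and Timp3 (1.18 ± 0.47) had the smallest p there. Adgrg6 had 0 UMIs in both Control libraries, 3, 2 and 3 in Stress and 15 in Dexamethasone. In smooth muscle-like nuclei 0 of 17 were called, against 0.532% of all genes. The smallest p belonged to Adgrg6 (2.56 ± 0.84), Itga1 (-0.81 ± 0.34), the prolyl hydroxylase P4ha1 (-0.97 ± 0.57) and Loxl2 (-0.65 ± 0.52). Adgrg6 was at 151 CPM there in Dexamethasone and 0 to 55.3 elsewhere, while glial markers were at 796 and 45.0 to 203 CPM. Glia-like nuclei held 422 to 628 CPM of Adgrg6, and the part of glial RNA in this value was not tested.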

How the data were processed

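The deposited UMI count matrices were written, per the file headers, by Cell Ranger 4.0.0 for Control and Stress and 5.0.1 for Dexamethasone; the submitters' processing notes name Cell Ranger 5 and 5.0 and mm10. Whether introns or strand entered the counting is not given in the sources used here. The other deposited files list barcodes and genes. From these counts, nuclei were taken as barcodes of 300 genes or more in which mitochondrial genes gave no more than 5% of UMIs, scrublet removed 25 doublets (0.7223% of 3461, so doublets may remain), and scanpy 1.11.5 clustered the nuclei (2000 variable genes without collagens, 30 components, 15 neighbours, Leiden resolution 1). Clusters were named from fixed marker lists, with score thresholds set after seeing the clusters. UMIs were summed per library and class where at least 10 nuclei were present and tested with edgeR 4.0.16 (filterByExpr, TMM, quasi-likelihood F-test, Benjamini-Hochberg over all genes tested, R 4.3.3). DESeq2 1.42.0, other filters, clusterings and left-out libraries were alternatives. Scripts were tested on data simulated with a fixed spread. For Stress, 14% (glia-like), 8% (fibroblast-like) and 16% (smooth muscle-like) of 2-fold changes were recovered, and 74%, 74% and 48% of 4-fold changes. For Dexamethasone these were 0%, 2% and 0% at 2-fold and 42%, 18% and 24% at 4-fold. A count of 0 calls therefore cannot show that no collagen changed by 2-fold. Sequences came from RefSeq tables (GRCm38.p6).

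Stress was fitted with the Control and Stress libraries and Dexamethasone with all 6. Collagens named with values were those called between groups, otherwise the 3 of smallest p in glia-like, fibroblast-like and smooth muscle-like nuclei, up to 5 of the largest difference per class or glial cluster, and Col1a1, Col1a2, Col3a1, Col4a1, Col4a2 and Col6a1 to Col6a3; up to 4 pathway genes of smallest p were named per group comparison. The members, gene lists and tests were chosen with earlier results of these data known. Between Control and Stress, deviations of same-numbered libraries from their group means correlated at -0.159 and -0.019, and the numbers were not taken to pair them. With 2 Control libraries, whose deviations mirror each other, this check cannot exclude pairing. Floors of 3 UMIs cover counting error only.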

Additional observations from a re-analysis of the deposited data

Results flagged for a closer look

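By an interaction term in edgeR, the Stress log2 fold change of Col8a1 was higher in smooth muscle-like than in glia-like nuclei. The difference was 2.26 ± 0.52 (SE, adjusted p = 0.0112 by this term). In smooth muscle-like nuclei it stood at 106 and 33.3 CPM in the Control, 287, 373 and 83.0 in the Stress libraries, and in glia-like nuclei at 996 and 525, then 390, 550 and 543 CPM. The Stress range in smooth muscle-like nuclei overlapped Control 1. Leaving out Control 1, Control 2, Stress 1 or Stress 2 in turn gave 2.95, 2.07, 1.88 and 1.90, with adjusted p of 0.561, 0.598, 0.0893 and 0.187, and only without Stress 3 was the difference still called (2.94, adjusted p = 0.000245).

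For Dexamethasone, the interaction term called Col11a1 in the same classes, with a difference of log2 fold changes of 4.45 ± 1.08 from 1 treated library. In smooth muscle-like nuclei Col11a1 stood at 82.2 CPM in Dexamethasone, against 9.61 and 0 in Control and 77.1, 11.7 and 6.92 in Stress. These levels rest on 25 UMIs in Dexamethasone and 1 and 0 in Control. Glia-like nuclei had 812 CPM in Dexamethasone. Summed glial markers in smooth muscle-like nuclei were at 796 CPM in Dexamethasone and 45.0 to 203 elsewhere, skeletal muscle markers at 763 against 5.83 to 28.0 and neuron markers at 720 against 150 to 268, and their part in the difference was not tested. The call was lost without Control 1 (8.86, adjusted p = 0.264) and without Control 2 (3.66, adjusted p = 0.359).

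Col8a1 was also called by the interaction term for Dexamethasone between glia-like clusters 10 and 9, with a difference of -1.33 ± 0.41 from 1 treated library. Dexamethasone was at 408 CPM in cluster 10, against 1285 and 665 in Control, and at 918 CPM in cluster 9, against 958 and 491. The call was lost without Control 1 (-1.43, adjusted p = 0.149) and without Control 2 (-1.34, adjusted p = 0.154).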

How the results depend on the processing

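Of the counts of called collagens recomputed under alternatives, 344 stayed within 1.5 times of the reported count and 60 did not. Many reported counts between groups were 0, and a 0 that stayed 0 is among the 344, so this tally is no measure of how stable the calls are. The cause was not tested in any case. With each library left out in turn, Stress counts went from 0 to 1 in glia-like and fibroblast-like nuclei and in cluster 10, Dexamethasone counts from 1 to 2 in glia-like nuclei and cluster 10 and from 0 to 1 in smooth muscle-like nuclei. Without Control 1 and Stress 1, Stress calls were 1 in glia-like, 3 in fibroblast-like and 1 in smooth muscle-like nuclei, and Dexamethasone calls 2 in glia-like, 1 in fibroblast-like nuclei, 1 in cluster 7 and 2 in cluster 10. With no filter on mitochondrially encoded UMIs, where scrublet marked only 0.4157% of 10343 barcodes as doublets, Stress calls were 1 and Dexamethasone calls 3 in glia-like and 1 in neuron-like nuclei. With no filter on low counts, Stress calls were 1 in neuron-like and 1 in smooth muscle-like and Dexamethasone calls 1 in fibroblast-like nuclei. At Leiden resolution 1.5 cluster 10 had 1 call for Stress and 3 for Dexamethasone, and DESeq2 made 1 Stress call in fibroblast-like nuclei. A replicate block gave 1 Stress call in smooth muscle-like nuclei (Col8a1) and changed no other count of calls. Whether the replicate numbers pair the libraries is not known.

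By class, counts of lower collagens under the stricter filter on nuclei were 0 in fibroblast-like, 2 in smooth muscle-like and 5 in lymphatic endothelium-like nuclei. With no mitochondrial filter, they were 2 in glia-like, 4 in neuron-like, 0 in fibroblast-like and 1 in lymphatic endothelium-like nuclei, the last with 2 higher. With collagens kept among the clustering genes, they were 0 in glia-like, 0 in smooth muscle-like and 4 in lymphatic endothelium-like nuclei, and cluster 9 had 0 higher and 6 lower. DESeq2 gave 3 lower in glia-like and 3 in smooth muscle-like nuclei. With no filter on low counts epithelium-like nuclei had 1 higher, cluster 7 5 lower, cluster 9 1 lower and cluster 10 4 higher. With 1 library left out, lower counts ranged from 1 to 2 in glia-like, 11 to 15 in neuron-like, 0 to 1 in fibroblast-like and 0 to 1 in smooth muscle-like nuclei. Higher counts then ranged from 5 to 8 in cluster 7, 0 to 2 in cluster 9 and 0 to 1 in cluster 10, and lower counts from 1 to 2 in cluster 9.

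Of single collagens, 10 values changed sign, and none of these values was called; 1 of them, Col4a2 by class, was called in the reported test. Stress Col23a1 in lymphatic endothelium-like nuclei came to 0.06 without the mitochondrial filter, 0.20 without the low-count filter and 0.06 without Control 1 and Stress 1, and Stress Col8a1 in cluster 7 to 0.08 with collagens kept. Dexamethasone Col27a1 and Col18a1 in neuron-like nuclei came to 0.86 and -0.57 under the stricter filter. Dexamethasone Col4a2 in lymphatic endothelium-like nuclei came to 0.18 without the low-count filter, -0.69 to 0.44 with 1 library left out (0.44 without Control 1) and 0.46 without Control 1 and Stress 1, and by class Col4a2 came to -0.05 without the mitochondrial filter. Of the group comparisons, those not run were Dexamethasone in epithelium-like nuclei, Stress there without the mitochondrial filter, both in lymphatic endothelium-like nuclei under the stricter filter, and any in glial clusters where a setting gave no matching cluster, as for the glial clusters against each other under the stricter filter and without the mitochondrial filter. Among the 6 classes tested, depth limits the fibroblast-like and lymphatic endothelium-like sums most, with a floor of 6.44 and 9.17 CPM over all libraries.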

Other observations

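Unnamed cluster 13 (215 nuclei, led by Slc12a8, Spdef, Ern2 and Creb3l1, with the mucin gene Muc2 at 5014 CPM) held a high level of Col8a1. Col8a1 stood at 2259 and 912 CPM (Control), 1436, 1351 and 1559 (Stress) and 947 (Dexamethasone), while epithelium-like nuclei had 33.7 CPM pooled. The epithelial marker Epcam was at 417 CPM in cluster 13, against 1851 in epithelium-like nuclei and 40.7 to 114 in the other ranked classes. The cluster thus carried epithelial markers although it was left unnamed. Unnamed cluster 2 (85 nuclei, led by the neuropeptide genes Penk and Tac1, with Elavl4 at 970 CPM) held Col25a1 at 1036 CPM pooled and Col27a1, a fibrillar collagen best known from cartilage, at 521 CPM.

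Col6a6, chosen after its values were seen, was higher in every Stress library than in both Control libraries in neuron-like and smooth muscle-like nuclei. In smooth muscle-like nuclei its levels under Stress were 42.0, 40.8 and 86.4 CPM (6, 7 and 25 UMIs), with 0 UMIs in Control. Fibroblast-like nuclei had 14.1, 22.9 and 83.4 CPM under Stress and 0 UMIs in Control. These rest on 1, 2 and 9 UMIs, with Stress 1 and Stress 2 under the floor of 3 UMIs, too few to tell. Glia-like nuclei held 7 UMIs in all 6 libraries. No call was made for it between groups except in neuron-like nuclei without the low-count filter.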
